A study of Mus musculus with 40 samples.

Results

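The genes described here are the vascular connexins Gja1 (Cx43), Gja4 (Cx37), Gja5 (Cx40) and Gjc1 (Cx45), taken by their symbols from both deposited expression tables. They are 4 of 17809 genes listed, and all 4 were present in both tables. The samples were 40 RNA-seq libraries of male mouse aorta, each made from 3 pooled aortas after removal of the adventitia and the surrounding tissue. The genotype experiment had 22 libraries, 2 in untreated Cn-Ctl and in Cn-Ctl at 24 h and 3 in each of the other 6 groups, and the CsA experiment had 6 groups of 3.

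In the genotype experiment the labels give every library as floxed for CnB1 (Ppp3r1), the regulatory subunit of the phosphatase calcineurin, and the mice received tamoxifen at 1 mg daily for 5 days at 10 to 12 weeks of age. By the labels Cn-Ctl mice were Myh11-CreERT2-negative and SM-Cn-/- mice Myh11-CreERT2-positive, and in libraries so labelled, deletion in smooth muscle and presence of the transgene cannot be told apart. The study's methods also name mice with wild-type CnB1 and the transgene among its controls, and whether any entered these pools is not given in the sources used here. Angiotensin-II (Ang-II, 1 µg/kg/min) was given 6 weeks later by implanted osmotic minipump for 2, 6 or 24 h, or not at all. By the study's methods, control mice had the surgery but no pump, so Ang-II and its pump cannot be told apart in either experiment. When the untreated mice of these libraries were operated on is not given in the sources used here. In the CsA experiment, C57BL/6J mice were left as wild type (WT) or given the calcineurin inhibitor cyclosporine A (CsA) at 5 mg/kg/day by minipump for 5 days, then kept untreated or infused with Ang-II for 2 or 24 h. WT mice had no pump at the CsA stage, so CsA and the pump cannot be told apart. Treated Cn-Ctl, WT and CsA mice entered only if systolic pressure exceeded 130 mmHg, whereas SM-Cn-/- mice were not selected by pressure. By the study's methods, SM-Cn-/- mice in which CnB1 deletion could not be shown were removed. CsA mice were removed if inhibited dephosphorylation of NFAT, a calcineurin substrate, could not be shown in the thymus. Pooling hides the spread between animals, and p-values below measure the spread between pools.

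Connexins are membrane proteins that assemble into hemichannels. Hemichannels of neighbouring cells dock to form gap junctions, through which ions and small molecules pass directly between cells. In the arterial wall Gja4 and Gja5 are known mainly from the endothelium, Gjc1 from smooth muscle and Gja1 from both, and together these proteins carry the electrical and calcium signals that coordinate vessel tone. The genotype and CsA comparisons ask which transcripts respond to Ang-II, and which of those responses need calcineurin in smooth muscle or an uninhibited calcineurin in the whole animal.

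On mouse build GRCm38, Gja1 (ENSMUSG00000050953) spans chr10:56377330-56402513 on the plus strand and Gja5 (ENSMUSG00000057123) spans chr3:96904693-97077416 on the plus strand. Gja4 (ENSMUSG00000050234) spans chr4:127311421-127314039 and Gjc1 (ENSMUSG00000034520) spans chr11:102799579-102819700, both on the minus strand. Gja5 shares 165 exonic bases with Gpr89 on the opposite strand, and whether the authors' counting used strand is not given in the sources used here, so its reads may include some of Gpr89. RefSeq entries on build GRCm38.p6 gave the sequence before the transcription start for 3 of the 4 members (Gjc1 excepted), shown because Gja1 and Gja4 moved in opposite directions at 2 h. Capitals mark, on either strand, the AP-1 motif TGANTCA, the cAMP response element TGACGTCA, the GC box GGGCGG bound by Sp1, the TATA box TATAAA and the NFAT core GGAAA, and no 2 marked stretches overlap. The windows are chr10:56377050-56377299 (plus), chr4:127314040-127314289 (minus) and chr3:97032152-97032401 (plus), each 250 bases ending at the base before the start. Each start is that of a RefSeq entry, and for Gja1 and Gja5 it differs from the start of the span given above. The Gja5 window lies inside the Gja5 span, and the sequence before the first annotated base of Gja5 is not shown.
Gja1: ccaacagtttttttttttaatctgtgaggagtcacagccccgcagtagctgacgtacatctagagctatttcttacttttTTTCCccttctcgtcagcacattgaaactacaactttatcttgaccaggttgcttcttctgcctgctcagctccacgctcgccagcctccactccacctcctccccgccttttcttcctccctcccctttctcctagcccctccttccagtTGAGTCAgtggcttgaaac
Gja4: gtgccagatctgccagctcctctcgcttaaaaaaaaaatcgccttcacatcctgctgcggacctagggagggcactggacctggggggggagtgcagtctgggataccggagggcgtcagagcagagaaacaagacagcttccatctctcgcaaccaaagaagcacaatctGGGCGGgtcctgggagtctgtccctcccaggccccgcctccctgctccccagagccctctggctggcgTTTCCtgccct
Gja5: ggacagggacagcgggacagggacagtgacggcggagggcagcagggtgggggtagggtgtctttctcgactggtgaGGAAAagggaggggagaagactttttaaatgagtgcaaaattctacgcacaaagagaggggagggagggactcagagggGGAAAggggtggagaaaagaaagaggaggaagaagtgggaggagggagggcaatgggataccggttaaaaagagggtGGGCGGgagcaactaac
The Gja1 window held an AP-1 match from 19 to 13 bases before the start, and AP-1 matches were in 6.75% of 32851 windows of that length. Neither other window held an AP-1 match, but both held a GC box, as did 32.7% of all windows. Each held at least 1 NFAT core, which was in 55.6% of all windows. None held the cAMP response element, found in 1.55% of windows, or the TATA box, found in 12.4%. These matches are letters in a window, and no binding was measured here.

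The values are normalised read counts, scaled by the authors to a common library size close to that of CPM. Libraries held 2728007 to 10250178 reads in the genotype experiment and 18976266 to 38900009 in the CsA experiment, so low genes were measured more precisely in the second. Per kilobase of the longest coding transcript, the mean level over the 22 genotype libraries was 61.5 ± 43.8 (SD) for Gja1, 28.4 ± 5.64 for Gjc1, 11.3 ± 5.99 for Gja4 and 7.08 ± 3.71 for Gja5. Over the 18 CsA libraries it was 59.1 ± 26.3 for Gja1, 19.8 ± 6.61 for Gja4, 19.4 ± 3.55 for Gjc1 and 7.56 ± 3.32 for Gja5. The ranges of mean ± SD overlapped for Gja4 and Gjc1 in the CsA experiment. In the genotype experiment they overlapped for Gja4 and Gja5 and for Gja1 and Gjc1. These SDs also hold the differences between groups, and no test between genes was made. The order depends on the length used, because the union of all exons of Gja1 is 10257 bases long against 3182 for its longest coding transcript. Per kilobase of exon union, Gja1 stood at 18.3 ± 8.16 and Gja4 at 19.8 ± 6.61 in the CsA experiment.

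The labelled tissue was checked against its markers. All 8 smooth muscle markers and all 10 endothelial markers had reads in every library, and the smooth muscle sum was above the endothelial sum in every group. The floxed gene itself, Ppp3r1, stood at 91.3 ± 17.8 (SD, n = 2) in untreated Cn-Ctl and 67.3 ± 17.5 (n = 3) in untreated SM-Cn-/- aortas, a log2 difference of −0.46 ± 0.36 (SE) that limma did not call (adjusted p = 0.983). The means were 102 ± 27.9 and 93.8 ± 23.8 at 2 h, 87.5 ± 35.3 and 56.5 ± 22.6 at 6 h and 62.99 ± 24.5 (n = 2) and 74.3 ± 17.2 at 24 h, higher in SM-Cn-/- at that last time, and the genotypes overlapped at every time. Whole-aorta Ppp3r1 RNA therefore did not separate the libraries by their labels. Ppp3r1 shares 462 exonic bases with Wdr92 on the same strand, so its reads may include some of Wdr92. By its methods, the study checked CnB1 recombination by PCR on a piece of aortic tissue. Its immunoblots showed less CnB protein in aortic extracts of SM-Cn-/- mice than of controls. The other cells of the aorta keep an intact gene, and the deleted exon is not given in the sources used here.

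Gja1 showed the strongest response to Ang-II among the members. It forms the gap junctions shared by smooth muscle and endothelium. In Cn-Ctl aortas it rose 3.27-fold at 2 h, in WT aortas 2.03-fold and in CsA aortas 2.54-fold, whereas in SM-Cn-/- aortas the 2 h level stayed within the range of untreated ones. Folds are on the log2(value + 0.5) scale.

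**Figure D1:**
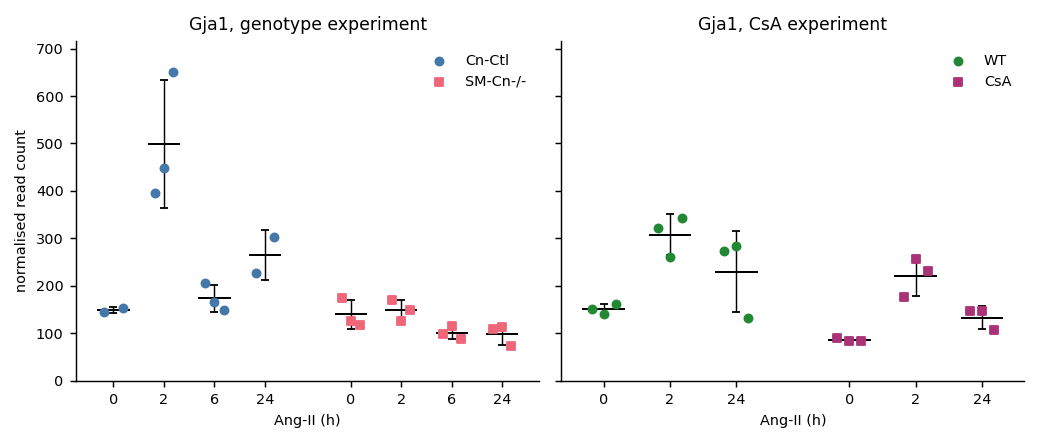
Gja1 as normalised read counts (vertical axis) by hours of Ang-II (horizontal axis, 0 is untreated) in the genotype (left) and CsA (right) experiments. Points are libraries, horizontal lines are means and bars are 1 SD. The 3 Cn-Ctl libraries at 2 h lie between 396 and 652, above the 19 other libraries of the genotype experiment.

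In untreated Cn-Ctl aortas, Gja1 stood at 144 and 154, and after 2 h of Ang-II at 396, 449 and 652. All 3 treated libraries lay above both untreated ones, and the log2 difference was 1.71 ± 0.24 (SE; limma, adjusted p = 4.3e-05 over 14424 genes). Of the 4 members Gja1 alone was called in this comparison, where 6.23% of all genes were. At 6 h the Cn-Ctl libraries had returned to 149, 165 and 206, which overlapped the untreated values (log2 0.21 ± 0.24, adjusted p = 0.739). At 24 h they stood at 227 and 302, both above the untreated libraries but not called by limma (log2 0.82 ± 0.26, adjusted p = 0.0694), whereas DESeq2 called it (adjusted p = 0.022). Leaving out Cn-Ctl replicate 2 at 24 h took the 24 h difference to 1.02 (adjusted p = 0.0493), and leaving out replicate 3 took it to 0.61 (adjusted p = 0.436). Against 2 h the 24 h level fell by 0.89 on the log2 scale (adjusted p = 0.023), a call lost without either 24 h library and without Cn-Ctl replicate 3 at 2 h, with adjusted p up to 0.15. It was also lost with only the groups compared (adjusted p = 0.0941), without the intensity trend (adjusted p = 0.0563) and with quantile scaling, which took the log2 difference to −0.51 (adjusted p = 0.208).

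In SM-Cn-/- aortas, Gja1 stood at 118, 126 and 174 untreated and at 127, 150 and 169 after 2 h. These groups overlapped, with a log2 difference of 0.10 ± 0.21 (95% interval −0.34 to 0.54, adjusted p = 0.877). It stood at 88.7, 98.7 and 115 at 6 h and at 72.7, 108 and 113 at 24 h. All 6 late libraries lay below the 3 untreated ones, but neither log2 difference was called (−0.46 ± 0.21, adjusted p = 0.285, and −0.51 ± 0.21, adjusted p = 0.325). None of the 4 members was called by limma, edgeR or DESeq2 at 2 h in SM-Cn-/- aortas, and none had an unadjusted p under 0.05, where limma called 1.13% of all genes.

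Between the genotypes, untreated Gja1 levels overlapped (log2 −0.11 ± 0.24, SM-Cn-/- minus Cn-Ctl, adjusted p = 0.989). At 2 h every SM-Cn-/- library was below every Cn-Ctl library, by 3.30-fold on average (log2 −1.72 ± 0.21, adjusted p = 2.3e-05). Gja1 was again the 1 member called, against 3.7% of all genes. At 6 h the libraries also did not overlap, with a log2 difference of −0.77 ± 0.21 that limma did not call (adjusted p = 0.0621) and DESeq2 did (adjusted p = 0.0182). At 24 h SM-Cn-/- libraries were 2.72-fold lower (log2 −1.44 ± 0.24, adjusted p = 0.000835), with 1 member called against 4.94% of genes. The difference between the 2 h responses was tested directly and came to −1.61 ± 0.32 on the log2 scale (adjusted p = 0.0156), with 1 member called against 0.513% of genes. Its size stayed between −1.76 and −1.40 when any 1 library was left out, but the adjusted p passed 0.05 in 4 of those 11 fits. It was 0.149 and 0.0727 without replicates 2 and 3 of untreated Cn-Ctl, 0.0541 without untreated SM-Cn-/- replicate 1 and 0.0642 without SM-Cn-/- replicate 2 at 2 h. The same difference at 24 h was −1.33 ± 0.33, not called by limma (adjusted p = 0.0757) and called by DESeq2 (adjusted p = 0.00539).

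The summed smooth muscle markers moved less than Gja1 in Cn-Ctl aortas and more than Gja1 in SM-Cn-/- aortas. They ranged from 28676 to 29316 in untreated Cn-Ctl aortas, from 27521 to 35819 at 2 h, from 21042 to 24507 in untreated SM-Cn-/- aortas and from 25482 to 32042 at 2 h. Per 1000 of that sum, Gja1 stood at 5.13 ± 0.314 (SD, n = 2) untreated and 16 ± 6.74 (n = 3) at 2 h in Cn-Ctl aortas, and at 6.11 ± 1.28 and 5.34 ± 0.925 in SM-Cn-/- aortas. On this scale too, all Cn-Ctl libraries at 2 h were above all untreated ones and above all SM-Cn-/- libraries at 2 h. At 24 h the Cn-Ctl ratios were 4.57 and 10.96, which overlapped the untreated 4.91 and 5.36. The ratios of the genotypes overlapped at 6 h, and at 24 h all SM-Cn-/- ratios were lower.

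In WT aortas, Gja1 stood at 141, 150 and 162 untreated and at 260, 321 and 342 after 2 h. The groups did not overlap (log2 1.02 ± 0.23, adjusted p = 0.00447 over 13741 genes). In CsA-treated aortas it stood at 83.7, 84.3 and 89.3 untreated and at 175, 230 and 257 after 2 h, again without overlap (log2 1.34 ± 0.23, adjusted p = 0.00103). Both log2 responses were past the threshold, and their difference was 0.32 ± 0.32 (CsA minus WT, 95% interval −0.36 to 1.01, adjusted p = 0.682). At 24 h neither response was called, at 132, 273 and 285 in WT (log2 0.53 ± 0.23, adjusted p = 0.087) and 106, 146 and 147 in CsA (log2 0.61 ± 0.23, adjusted p = 0.105). WT replicate 3 at 24 h was the low library, and without it the WT difference at 24 h was 0.89 (adjusted p = 0.000891) and CsA minus WT at 24 h was −1.08 (adjusted p = 0.00184).

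CsA aortas nevertheless held less Gja1 than WT aortas. The untreated CsA libraries were all below the WT ones, by 1.75-fold (log2 −0.81 ± 0.23, adjusted p = 0.0182), and over the 3 times the mean difference was −0.67 ± 0.13 (adjusted p = 0.00197). The untreated call was lost without WT replicate 3 (adjusted p = 0.0656) or CsA replicate 3 (adjusted p = 0.0547). Untreated CsA and WT aortas also differed in their markers. The smooth muscle sum was 16623 to 18702 in CsA and 25857 to 35412 in WT, the endothelial sum 1139 to 1317 against 475 to 749, and the sum of 6 adipose markers 2333 to 4177 against 353 to 667. The 6 cardiac muscle markers summed to 222 to 1786 in untreated CsA and 131 to 472 in WT. Without untreated CsA replicates 1 and 2, which had the highest cardiac sums and left 1 library assumed to vary like the others, the untreated differences were −0.84 for Gja1 (adjusted p = 0.131), 1.42 for Gja5 (adjusted p = 0.0773) and −0.77 for Gjc1 (adjusted p = 0.0392). In bulk RNA, fewer cells of a type and less RNA per cell cannot be told apart. Per 1000 of the smooth muscle sum, untreated Gja1 was 4.91 ± 0.434 in CsA and 4.97 ± 0.716 in WT (SD, n = 3 each), and these overlapped. The part of tissue makeup in the lower Gja1 of CsA aortas was not tested beyond this ratio.

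**Figure D2:**
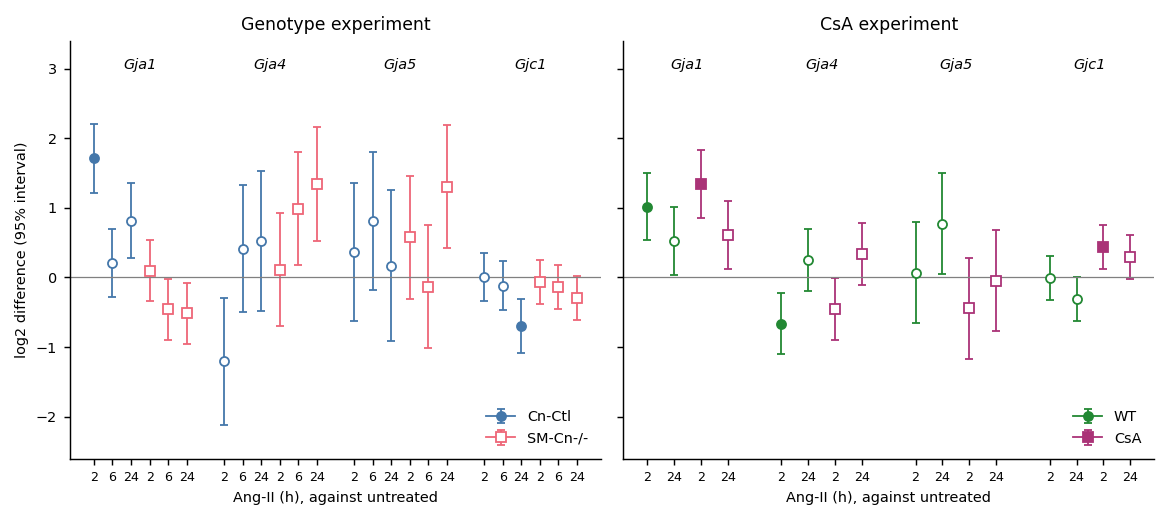
Log2 difference from untreated (vertical axis) for each member at each time of Ang-II (horizontal axis, hours) in the genotype (left) and CsA (right) experiments, with 95% intervals from limma. Filled symbols have an adjusted p under 0.05. Gja1 at 2 h is filled and positive in Cn-Ctl, WT and CsA aortas and near 0 in SM-Cn-/- aortas.

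Gja4, a connexin of arterial endothelium, moved the other way at 2 h. In WT aortas it stood at 27.6, 29.1 and 33.1 untreated and at 16.04, 19.5 and 20.8 after 2 h. It fell by 0.66 ± 0.21 on the log2 scale (adjusted p = 0.0323) with no overlap, so 2 of the 4 members were called in this comparison, where 21.4% of all genes were. This call was close to the threshold, and leaving out any WT library of those 2 groups except replicate 1 at 2 h gave an adjusted p of 0.0555 to 0.116. In Cn-Ctl aortas it stood at 11.04 and 26.1 untreated and at 4.98, 7.28 and 9.85 at 2 h, which also did not overlap. That difference of −1.20 ± 0.44 was not called (adjusted p = 0.118), passed under DESeq2 (adjusted p = 0.0464), and was −0.60 without untreated Cn-Ctl replicate 2, the higher of both untreated libraries. In CsA aortas the levels were 32.2, 33.7 and 49.8 untreated and 22.4, 25.5 and 36.3 at 2 h, with overlap and a log2 difference of −0.45 ± 0.21 (adjusted p = 0.133). The counts behind Gja4 were small in the genotype experiment, from 32 to 293 reads per library.

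Gja4 was higher at 24 h than at 2 h in all 4 arms. In Cn-Ctl aortas it stood at 15.6 and 39.0 at 24 h, 1.73 ± 0.44 above 2 h on the log2 scale (adjusted p = 0.0188), and 3 of the 4 members were called there against 7.37% of genes (Gja4 higher, Gja1 and Gjc1 lower). Without Cn-Ctl replicate 3 at 24 h none of the 3 was called, with a log2 difference of 1.08 for Gja4 (adjusted p = 0.368), −1.10 for Gja1 (adjusted p = 0.0705) and −0.53 for Gjc1 (adjusted p = 0.244). With only the groups compared none was called either (adjusted p of 0.0905 to 0.0976). The Gja4 call was also lost without replicate 3 at 2 h (adjusted p = 0.0712), and the Gjc1 call without replicate 2 at 2 h (adjusted p = 0.0543) and with quantile scaling (adjusted p = 0.0588). In WT aortas the 24 h libraries stood at 28.6, 31.5 and 49.7 (log2 0.91 ± 0.21 above 2 h, adjusted p = 0.00302), with 1 member called against 36.2% of genes. In CsA aortas they stood at 46.0, 46.6 and 51.0 (log2 0.79 ± 0.21, adjusted p = 0.0167), with 2 members called against 18% of genes. The CsA call of Gja4 was lost without replicate 3 of either group, with adjusted p of 0.0675 and 0.0519. The other member called there, Gja1, was lower at 24 h than at 2 h (log2 −0.73, adjusted p = 0.0377), a call lost in 5 of 6 fits without 1 library (adjusted p of 0.0517 to 0.139), with quantile scaling (0.0749), with only the groups compared (0.0648) and without the intensity trend (0.0537). In SM-Cn-/- aortas Gja4 stood at 8.73, 12.2 and 13.1 untreated, 9.35, 10.2 and 18.8 at 2 h, 16.8, 24.8 and 28.1 at 6 h and 27.0, 29.7 and 31.1 at 24 h. The 24 h libraries were above all untreated ones, with a log2 difference of 1.34 ± 0.39 that was not called (adjusted p = 0.124), and they were 1.23 ± 0.39 above 2 h (adjusted p = 0.0803). Since the 24 h and 2 h comparisons within an arm share libraries, their values stand side by side as a description.

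The endothelial marker sum rose over the same SM-Cn-/- libraries, from 657 to 859 untreated to 1263 to 1350 at 24 h. Per 1000 of that sum Gja4 was 15.97 ± 5.15 untreated and 22.4 ± 0.858 at 24 h in SM-Cn-/- aortas (SD, n = 3), and these ratios did not overlap. At 2 h the ratio was 14.5 ± 7.77 in SM-Cn-/- aortas, which overlapped that at 24 h. In Cn-Ctl aortas it was 36.4 ± 15.4 untreated (n = 2) and 13.2 ± 5.33 at 2 h (n = 3), with the 2 h libraries all lower. At 24 h it was 46.3 ± 28.2 there (n = 2), which overlapped the untreated ratio. In WT aortas the ratio was 48.7 ± 8.0 untreated, 26.2 ± 2.53 at 2 h and 42.8 ± 9.25 at 24 h, with the 2 h libraries all below the untreated ones. The WT endothelial sum itself was 475 to 749 untreated and 689 to 746 at 2 h.

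**Figure D3:**
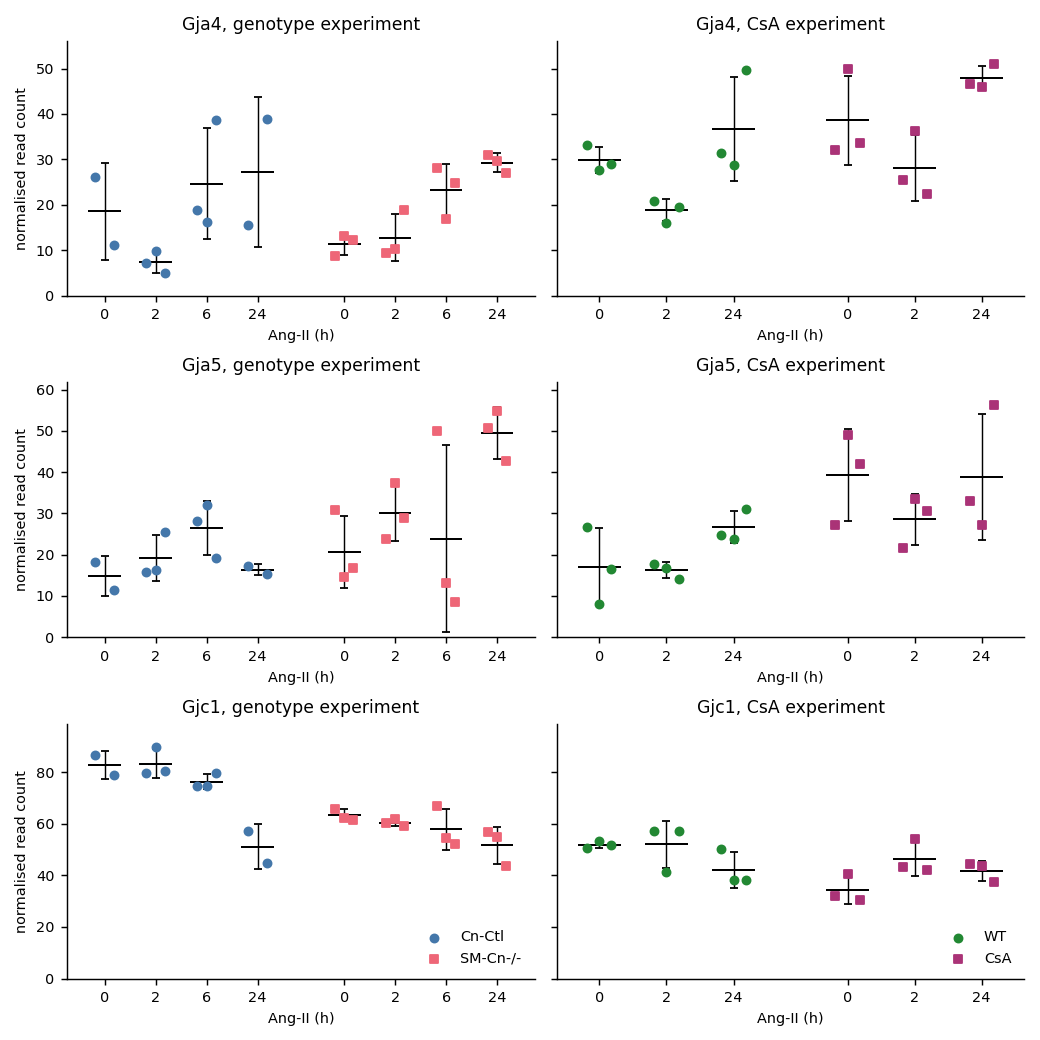
Gja4 (top), Gja5 (middle) and Gjc1 (bottom) as normalised read counts (vertical axes) by hours of Ang-II (horizontal axis, 0 is untreated) in the genotype (left) and CsA (right) experiments. Points are libraries, horizontal lines are means and bars are 1 SD. Mean Gja4 is lowest at 2 h in Cn-Ctl, WT and CsA aortas, with overlap with untreated in CsA. Gja5 is between 42.6 and 54.9 in SM-Cn-/- aortas at 24 h, and Gjc1 varies least.

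Gja5, the connexin that marks arterial endothelium, was not called by limma, edgeR or DESeq2 in any Ang-II response against untreated aortas, and its unadjusted p was under 0.05 in 2 of the 10 (SM-Cn-/- and WT at 24 h). Untreated levels were 11.4 and 18.3 in Cn-Ctl and 14.7, 16.7 and 30.7 in SM-Cn-/- aortas. At 2 h they were 15.9, 16.2 and 25.5 in Cn-Ctl and 23.8, 28.8 and 37.4 in SM-Cn-/- aortas, and each group overlapped its untreated one. At 24 h Cn-Ctl libraries stood at 15.4 and 17.3 and SM-Cn-/- libraries at 42.6, 50.7 and 54.9. The latter were above every untreated SM-Cn-/- library (log2 1.30 ± 0.43, adjusted p = 0.177) and above both Cn-Ctl libraries at 24 h (log2 1.56 ± 0.48, adjusted p = 0.0626). DESeq2 called this difference between the genotypes (adjusted p = 0.021), as did limma with only the groups compared (adjusted p = 0.016). The SM-Cn-/- libraries at 6 h were spread widely, at 8.50, 13.1 and 49.99, and the highest of them, replicate 1, also had the highest endothelial sum of the genotype experiment, 1478.

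In the CsA experiment, Gja5 was higher in untreated CsA aortas (27.1, 41.8 and 49.0) than in untreated WT aortas (8.07, 16.4 and 26.7). The groups did not overlap, though the nearest libraries were close, and the log2 difference was 1.29 ± 0.34 (adjusted p = 0.0128). Of the 4 members, 3 were called in this comparison (Gja5 higher, Gja1 and Gjc1 lower), where 25.2% of all genes were. The call for Gja5 was lost without untreated WT replicate 2 (log2 0.85, adjusted p = 0.0665) and without untreated CsA replicate 2 (adjusted p = 0.0506). At 2 h CsA libraries stood at 21.6, 30.4 and 33.4 and WT libraries at 14.01, 16.7 and 17.8, a log2 difference of 0.78 ± 0.34 that was not called (adjusted p = 0.235). Over the 3 times the mean CsA minus WT difference was 0.85 ± 0.20 for Gja5 (adjusted p = 0.00512) and 0.44 ± 0.12 for Gja4 (adjusted p = 0.0133). All 4 members were called in that mean difference, 2 higher and 2 lower, against 29% of genes. Of these, Gjc1 (log2 −0.25 ± 0.09, adjusted p = 0.0362) lost its call without any 1 of 10 libraries, with adjusted p of 0.0577 to 0.0786.

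These Gja5 differences went together with the endothelial markers. Of the 10 endothelial markers, limma called 9 higher and 1 lower in untreated CsA than in WT aortas, against 25.2% of all genes. Their median log2 difference was 1.19, against −0.02 for all genes. At 24 h limma called 4 higher in SM-Cn-/- than in Cn-Ctl aortas, against 4.94% of all genes (median 0.62, against 0.04). Per 1000 of the endothelial sum, Gja5 was 31.7 ± 7.02 in untreated CsA and 25.8 ± 9.37 in untreated WT aortas (SD, n = 3), and these overlapped. It was 37.7 ± 4.08 (n = 3) in SM-Cn-/- and 27.7 ± 2.09 (n = 2) in Cn-Ctl aortas at 24 h, and these did not. For Gja4 the ratio went the other way from the level in untreated aortas, at 31.2 ± 5.76 in CsA and 48.7 ± 8.0 in WT, with all CsA libraries below all WT ones. At 2 h the Gja4 ratio was 25.8 ± 5.83 and 26.2 ± 2.53, and at 24 h 44.2 ± 8.85 and 42.8 ± 9.25, with overlap at both times. Between the genotypes, untreated Gja4 ratios were 15.97 ± 5.15 in SM-Cn-/- (n = 3) and 36.4 ± 15.4 in Cn-Ctl aortas (n = 2). At 24 h they were 22.4 ± 0.858 and 46.3 ± 28.2. All SM-Cn-/- libraries were below all Cn-Ctl ones at these times, and the genotypes overlapped at 2 and 6 h. No further test of tissue makeup was made.

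**Figure D4:**
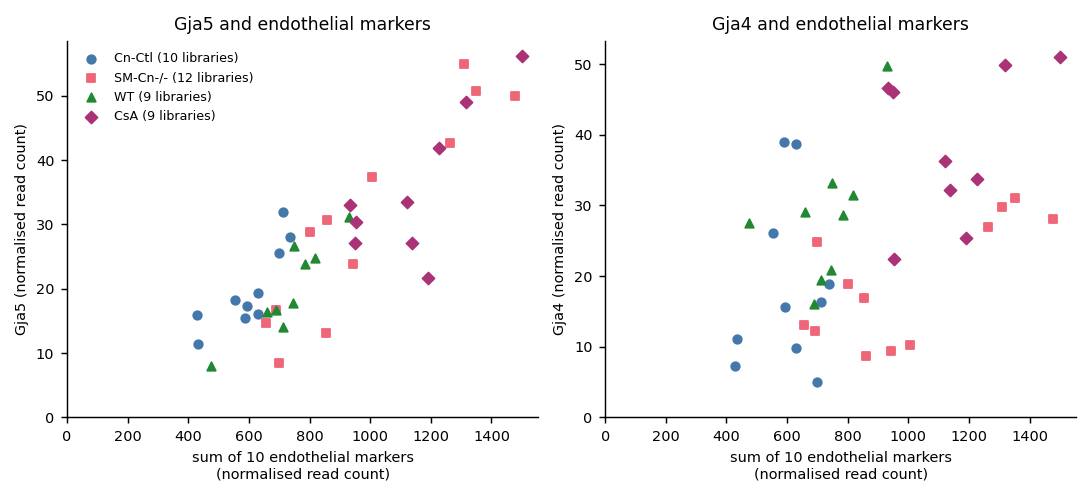
Gja5 (left) and Gja4 (right) as normalised read counts (vertical axes) against the sum of 10 endothelial markers on the same scale (horizontal axes). Each symbol is 1 of the 40 libraries, and the 2 experiments were normalised separately. The 5 highest Gja5 levels, 49.0 to 56.2, belong to SM-Cn-/- and CsA libraries with sums of 1310 to 1500, whereas Gja4 spreads from 4.98 to 39.0 over Cn-Ctl sums between 430 and 737.

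Gjc1, a connexin of smooth muscle, did not rise at 2 h in the genotype experiment. It stood at 79.1 and 86.6 in untreated Cn-Ctl aortas and at 79.7, 80.5 and 89.9 at 2 h, with overlap and a log2 difference of 0.01 ± 0.17 (95% interval −0.34 to 0.36, adjusted p = 0.991). At 6 h it was 74.5, 74.8 and 79.8. At 24 h it was 44.9 and 57.4, below every untreated library, and had fallen by 0.70 ± 0.19 on the log2 scale (adjusted p = 0.0269). This was the 1 member called at 24 h in Cn-Ctl aortas, against 5.62% of genes. The fall was no longer called without either untreated library or without Cn-Ctl replicate 3 at 24 h, where the log2 difference was −0.52 (adjusted p = 0.298).

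In SM-Cn-/- aortas Gjc1 was 61.6, 62.4 and 65.9 untreated, 59.1, 60.5 and 61.8 at 2 h and 43.6, 54.8 and 57.0 at 24 h. Every untreated and 2 h library was below every Cn-Ctl library of the same time, and the mean difference over the 4 times was −0.31 ± 0.08 (SM-Cn-/- minus Cn-Ctl, adjusted p = 0.0139). The single-time differences were not called (untreated −0.38 ± 0.17, adjusted p = 0.901, 2 h −0.46 ± 0.15, adjusted p = 0.11, 6 h −0.40 ± 0.15, adjusted p = 0.196, and 24 h 0.02 ± 0.17, adjusted p = 0.975), although DESeq2 called that at 2 h (adjusted p = 0.0274). Gja1 and Gjc1 were the 2 members called in the mean difference, against 11.1% of genes. Per 1000 of the smooth muscle sum, untreated Gjc1 was 2.78 ± 0.204 in SM-Cn-/- and 2.86 ± 0.138 in Cn-Ctl aortas, and these overlapped. At 24 h it was 2.00 ± 0.209 in SM-Cn-/- (n = 3) and 1.39 ± 0.333 in Cn-Ctl aortas (n = 2), with all SM-Cn-/- libraries higher.

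In the CsA experiment Gjc1 stood at 50.7, 51.7 and 53.4 in untreated WT aortas and 30.4, 31.98 and 40.4 in untreated CsA aortas. These did not overlap, and CsA aortas were 1.52-fold lower (log2 −0.60 ± 0.15, adjusted p = 0.00865). Per 1000 of the smooth muscle sum, untreated Gjc1 was 1.95 ± 0.205 in CsA and 1.72 ± 0.251 in WT aortas, and these overlapped. At 2 h that ratio was 2.04 ± 0.1003 in CsA and 1.55 ± 0.0975 in WT aortas, with all CsA libraries higher. At 2 h the libraries were 41.4, 57.3 and 57.4 in WT and 42.0, 43.2 and 54.1 in CsA aortas, and these overlapped. The CsA response at 2 h was 0.44 ± 0.15 on the log2 scale (adjusted p = 0.0492), all 3 treated libraries lying above the untreated ones, and 2 of the 4 members were called there against 20.1% of genes. That Gjc1 call was lost with a replicate block, where its adjusted p was 0.0611, and the CsA ratios at the 2 times overlapped. The difference from the WT response was 0.45 ± 0.21 (95% interval 0.0038 to 0.90, adjusted p = 0.358).

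**Figure D5:**
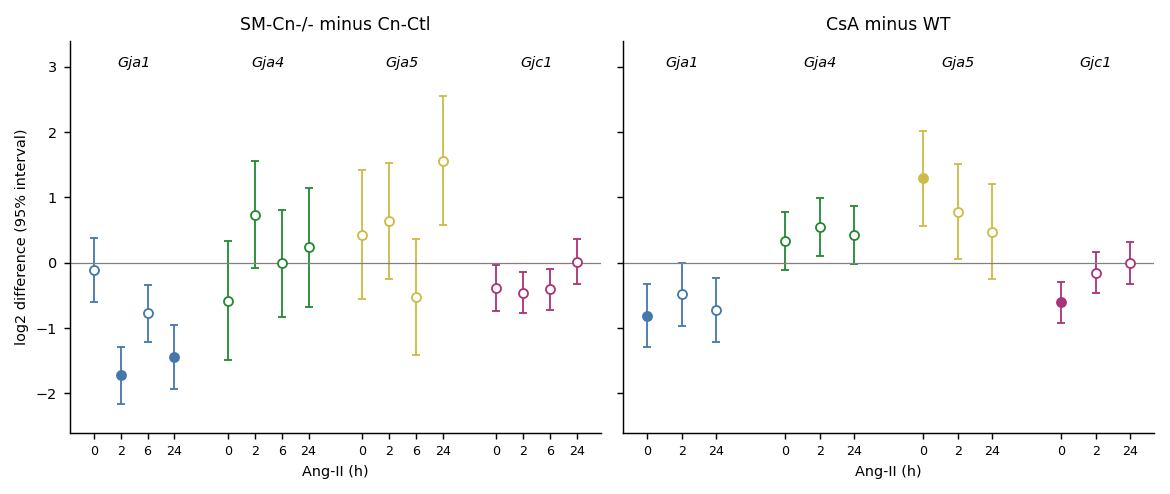
Log2 difference between arms (vertical axis) for each member by hours of Ang-II (horizontal axis, 0 is untreated), as SM-Cn-/- minus Cn-Ctl (left) and CsA minus WT (right), with 95% intervals from limma. Filled symbols have an adjusted p under 0.05. On the left Gja1 is filled at 2 and 24 h and near 0 untreated, and on the right Gja1, Gja5 and Gjc1 are filled untreated.

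In the remaining comparisons limma called no member. These were the 6 h responses of Cn-Ctl (3.97% of all genes called) and SM-Cn-/- aortas (2.34%), the 24 h responses of SM-Cn-/- (0.79%), WT (35%) and CsA aortas (8.97%), 24 h against 2 h in SM-Cn-/- aortas (3.65%), the genotypes untreated (0.0139%) and at 6 h (1.98%), CsA against WT aortas at 24 h (5.57%), and the differences between responses of the genotypes at 6 h (0.0624%) and 24 h (0.513%) and of CsA and WT aortas at 2 h (0.146%) and 24 h (9.42%). The unadjusted p was under 0.05 for 3 members in SM-Cn-/- aortas at 24 h (Gja1, Gja4 and Gja5), for 2 at 6 h there and between the genotypes at 6 h, for 2 in WT aortas at 24 h and in SM-Cn-/- aortas at 24 h against 2 h, for none in Cn-Ctl aortas at 6 h, and for 1 in each of the others. Of all genes, 11.5% had an unadjusted p under 0.05 in SM-Cn-/- aortas at 24 h, and 5.25% to 43.8% did over these comparisons. Of these comparisons, edgeR called 1 member in the 24 h response of WT aortas and none in the rest. DESeq2 called 2 in SM-Cn-/- aortas at 24 h against 2 h and 1 each in the 24 h responses of WT and CsA aortas, between the genotypes at 6 h, between the 24 h responses of the genotypes and in CsA against WT aortas at 24 h.

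Transcription factors described for connexin promoters were read in the same comparisons. AP-1, a dimer of Fos and Jun proteins, has its motif in the Gja1 window shown above. Of the 17 factors tested in the genotype experiment, 3 rose in Cn-Ctl aortas at 2 h and none fell, where 6.23% of all genes were called. They were Fosb (log2 4.59 ± 0.54, adjusted p = 7.2e-06), Fos (3.45 ± 0.48, adjusted p = 4.9e-05) and Jun (2.27 ± 0.21, adjusted p = 3.4e-07). The median of the list was 0.08 and that of all genes 0.01. None was called in SM-Cn-/- aortas, with Fos at −0.09 ± 0.43 and Jun at 0.20 ± 0.19. Between the genotypes at 2 h, 5 factors were lower in SM-Cn-/- aortas (3.7% of all genes called), among them Jun (−1.87 ± 0.19, adjusted p = 3.1e-06), Junb (−2.19 ± 0.46, adjusted p = 0.0063), Fosb and Fos. In the CsA experiment 8 of 18 factors rose and 1 fell in WT aortas at 2 h (21.4% of all genes called), with Fos at 4.47 ± 0.53, and 7 rose and 4 fell in CsA aortas (20.1%), with Fos at 2.45 ± 0.53. Among those that fell in CsA aortas were Gata4, Nkx2-5 and Tbx5, which are known from the heart, and the cardiac muscle sum was 1080 and 1786 in untreated CsA replicates 1 and 2 against 99.8 to 154 in the 3 CsA libraries at 2 h. Fos, Fosb and Junb were lower in CsA than in WT aortas at 2 h, where 1.33% of genes were called. They were lower by 2.71, 2.05 and 1.17 on the log2 scale (adjusted p = 0.0263, 0.0455 and 0.0381). Gja1 was not called in that comparison (−0.49 ± 0.23, adjusted p = 0.27), although every CsA library lay below every WT library. Whether these factors bear on Gja1 was not tested.

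Proteins that bind, anchor or phosphorylate connexins formed a second list, of which 18 genes were tested in each experiment. In Cn-Ctl aortas at 2 h, 2 rose and none fell (6.23% of all genes called). Among them was Src, a kinase that phosphorylates Cx43 (log2 1.06 ± 0.27, adjusted p = 0.0174). None was called at 2 h in SM-Cn-/- aortas, where Src and Nov (Ccn3, a matricellular protein that binds Cx43) were lower than in Cn-Ctl aortas, by 0.86 and 1.20 on the log2 scale (adjusted p = 0.047 and 0.0204). In WT aortas 5 of 18 rose and none fell at 2 h, near the 21.4% called among all genes, and in CsA aortas 7 rose and 2 fell, against 20.1%. Src was among the genes that rose in both, by 0.50 ± 0.13 in WT and by 0.67 ± 0.13 in CsA aortas.

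Arterial and flow-responsive endothelial genes, 15 in all, were read beside Gja4 and Gja5. In these bulk libraries the cells in which such genes changed were not identified. At 2 h, Klf2 and Klf4, factors induced in endothelium by shear stress, rose in Cn-Ctl aortas (log2 1.29 ± 0.28 and 2.17 ± 0.25) and in WT aortas (1.32 ± 0.16 and 1.64 ± 0.12). In WT aortas 3 of 15 rose and 2 fell, against 21.4% of all genes called, the latter being the Notch ligand Jag1 (−0.57 ± 0.14, adjusted p = 0.00859) and the Notch target Hey2 (−0.77 ± 0.14, adjusted p = 0.000752). Jag1 and Hey2 stood at −0.75 ± 0.23 and −0.93 ± 0.30 in Cn-Ctl aortas without being called (adjusted p = 0.0608 and 0.0672). In SM-Cn-/- aortas at 24 h, Nos3 (endothelial nitric oxide synthase) and Sox17 (an arterial endothelial factor) rose by 1.35 ± 0.27 and 1.43 ± 0.31 (adjusted p = 0.0213 and 0.0289). Of all genes, 0.79% were called there. The mean endothelial marker sum in SM-Cn-/- aortas was 735 untreated and 1308 at 24 h. In untreated CsA against WT aortas 9 were higher and 2 lower (25.2% of all genes called), with a median of 0.61 against −0.02 for all genes, led by Notch4 (1.41 ± 0.20), Notch1 (1.07 ± 0.17) and Nos3 (1.22 ± 0.23). The mean endothelial marker sum was 1227 in these CsA aortas and 628 in these WT aortas. The part of tissue makeup in these differences was not tested.

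Of 19 other connexins and pannexins, 7 were listed in the genotype table and 5 in the CsA table, all at low levels. The one with the highest mean in both was Gja6 (Cx33), a relative of Gja1 within the alpha group. It stood at 12.95 ± 1.15 (SD, n = 2) in untreated Cn-Ctl and 1.00 ± 1.23 (n = 2) in Cn-Ctl aortas at 24 h, and had fallen by 3.46 ± 0.61 on the log2 scale (limma, adjusted p = 0.00164). Those 24 h libraries stood at 0.129 and 1.87, the lower being the value of a gene without reads in replicate 3. The size of this fall, and of the difference between the genotypes below, is therefore uncertain. In WT aortas it stood at 9.78 ± 1.77 untreated, 8.56 ± 1.09 at 2 h and 1.97 ± 0.462 at 24 h (n = 3), having fallen by 2.06 ± 0.26 by then (adjusted p = 2.2e-05). In CsA aortas the fall at 24 h was 0.97 ± 0.26 (adjusted p = 0.0281). Its 24 h level in SM-Cn-/- aortas was 6.29 ± 2.45 against 7.38 ± 3.10 untreated (log2 −0.20 ± 0.50, adjusted p = 0.932). The 24 h responses of the genotypes differed by 3.26 ± 0.79, which was not called (adjusted p = 0.0643). Reads of such related genes could be split between them by the authors' counting, so Gja6 levels are less certain than those of the 4 members.

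Genes with the most similar pattern were sought among 10348 protein-coding genes, by the lower of the Pearson correlations of log2 levels over the 22 and the 18 libraries. These correlations describe libraries that share groups, and the genes were picked as the highest of many. Closest to Gja1 were Morf4l2 (0.931), Stk38l (0.910), H3f3b (0.907), Actg1 (0.892) and Rcan1 (0.888). Rcan1, an inhibitor of calcineurin whose own expression calcineurin raises, averaged 36.5 in untreated and 384 in 2 h Cn-Ctl aortas, and 34.9 and 44.5 in SM-Cn-/- aortas. Closest to Gja5 were Icam2 (0.787), Tek (0.764), Pecam1 (0.762), F11r (0.743) and Vwf (0.735), of which Tek, Pecam1 and Vwf are in the endothelial marker list. Closest to Gja4 were Mum1 (0.776), Fhod1 (0.762), Inf2 (0.750), Rpusd4 (0.733) and Ric8a (0.729), and none of the 10 endothelial markers was among them. Closest to Gjc1 were Arl6ip5 (0.826), Mbnl1 (0.821), Kif13a (0.791), Pdlim1 (0.780) and Pdlim3 (0.776). Between the members themselves, Gja1 and Gja4 ran opposite in both experiments (−0.56 and −0.67), Gja1 and Gjc1 ran together (0.51 and 0.65), and Gja4 and Gja5 were related less in the genotype (0.20) than in the CsA experiment (0.68), a difference that was not tested.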

How the data were processed

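Aortic RNA from pools of 3 mice was sequenced from oligo-dT libraries. Per the labels and the study's methods, the authors aligned reads with Bowtie 0.12.7 and estimated gene abundance with RSEM 1.16 on Ensembl transcripts (GRCm38). The deposited signal is a normalised read count, to which the authors added 0.5 reads before scaling each library to a common size. The normalization tool is not given in the sources used here. Dividing the steps back gave whole reads for 100.0% of values (tolerance 0.01), and the scales of the experiments were set separately. The study's authors discarded 1 untreated Cn-Ctl replicate, which was not analysed here.

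Groups came from the labels. The log2(signal + 0.5) values of protein-coding genes (14424 and 13741) were fitted with limma 3.58.1 (R 4.3.3; intensity trend, all groups of an experiment, no covariate), in 28 comparisons, with Benjamini-Hochberg adjustment over all genes of each and a threshold of 0.05. edgeR 4.0.16 and DESeq2 1.42.0 were run on the recovered reads as alternatives, and the code was tested on simulated data. Other alternatives were pseudocounts of 0.1 and 2, quantile, median-ratio and TMM scaling, other gene filters, fewer groups, no trend, a replicate block and leaving out each library. Among groups compared that share 3 numbers, same-numbered libraries deviated together in every pair only between untreated CsA and CsA at 2 h (correlations 0.169 to 0.377), a pairing seen in the data and not stated in the labels. Correlations of untreated Cn-Ctl with Cn-Ctl at 6 and 24 h were 0.158 to 0.208, over 2 shared numbers each.

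The genes named are the 4 members, Ppp3r1, up to 4 genes per list with the smallest adjusted p in a comparison, and the 5 most similar genes per member (mean signal of at least 5 in both experiments). Fos in SM-Cn-/- and CsA aortas, Jun in SM-Cn-/- aortas and Nkx2-5 and Tbx5 were named after their values were seen. The members and lists were chosen with earlier results of these data known. Gene positions, lengths and biotypes came from GENCODE M21 and promoters from RefSeq. Ratios to marker sums carry no test. The values of 1 gene that the rule would name are not reported here.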

Additional observations from a re-analysis of the deposited data

Results flagged for a closer look

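Gja1 was the member whose Ang-II response differed between groups by a test of the difference itself. Its 2 h response in SM-Cn-/- aortas was lower than that in Cn-Ctl aortas by 1.61 on the log2 scale (−1.61 ± 0.32 SE, limma, adjusted p = 0.0156), as all 3 Cn-Ctl libraries rose above both untreated ones and the SM-Cn-/- libraries overlapped theirs. No group held the 4 or more libraries needed to look for single outlying samples, and both deposited tables were used in full.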

How the results depend on the processing

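Across 112 results (4 members in 28 comparisons), 2316 values were recomputed, of which 2213 kept their direction and their side of the threshold, 70 lost a call, 33 gained one and none of the called values changed sign. The 2 h rise of Gja1 in Cn-Ctl aortas kept its call in all alternatives, as did that in WT and CsA aortas and the difference between the genotypes at 2 h. For Gja1, the difference between the 2 h responses of the genotypes was −1.37 with quantile scaling (adjusted p = 0.0658) and −1.61 without the intensity trend (adjusted p = 0.0767), both no longer called, and −1.76 to −1.40 with 1 library left out. Gja1 in untreated CsA minus WT aortas ranged from −0.86 to −0.76 with 1 library left out, and was −0.84 without the 2 libraries with the highest cardiac muscle markers, an alternative added after seeing the data. Gja4 in Cn-Ctl aortas at 2 h was −1.36 and called under DESeq2. Gja4 in WT aortas at 2 h was −0.65 under quantile scaling, no longer called (adjusted p = 0.0503), and −0.74 to −0.55 with 1 library left out. Gjc1 in CsA aortas at 2 h lost its call with a pseudocount of 2 (0.42), quantile scaling (0.38), all listed genes (0.44), only the groups compared (0.44), no intensity trend (0.44), the replicate block (0.44) and without those 2 libraries (0.60), and ranged from 0.32 to 0.56 with 1 library left out. The replicate block changed no other call of a member. Leaving out the 3 libraries with the most genes at 0 reads (Cn-Ctl replicate 3 at 6 and at 24 h, SM-Cn-/- replicate 3 at 6 h; added after seeing the data) took the 24 h fall of Gjc1 in Cn-Ctl aortas to −0.52 (adjusted p = 0.216). The causes of these changes were not tested. Depth limits Gja4 and Gja5 most in the genotype experiment, where they had as few as 32 and 24 reads in a library.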
